A study of Komagataella phaffii with 26 samples.

Results

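TMA10, RGI2, PIC2 and AQR1 are 4 genes of the methylotrophic yeast Komagataella phaffii, out of 5040 gene models with an expression value. They were taken by name, each name being matched to its locus, and they had been picked from earlier results of these data because their mRNA level before stress and their change after a shift to alkaline medium differed between cells grown on glucose and cells grown on glycerol. Levels before stress and all changes from a time zero group are therefore given here as descriptions, without tests, since every time zero group had a part in the choice. Tests are given for the 4 genes only between the stressed libraries of the pH 8.2 course on glycerol (60 against 15 min and 60 against 30 min).

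Poly(A) mRNA was sequenced from wild-type strain X-33, grown at 28 °C in rich medium with 20 g/L of glucose or glycerol. Cells were spun down and resuspended in fresh medium of the same carbon source buffered with 50 mM TAPS. The resulting 3 courses were glucose with a shift to pH 8.0 (8 libraries), glycerol with a shift to pH 8.2 (8 libraries) and glycerol with a shift to pH 8.0 (10 libraries), each with its own time zero at pH 5.5 and with samples after 15, 30 and 60 min at the alkaline pH. Every one of the 12 groups held 2 libraries, except glycerol at pH 8.0 after 15 min, which held 4.

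These genes are best known from Saccharomyces cerevisiae, and their roles in K. phaffii are inferred from the names and descriptions that the authors attached to the loci. In S. cerevisiae, Tma10 associates with ribosomes and its molecular function is unknown, and Rgi2 is a protein of energy metabolism whose gene is induced in respiratory growth. Pic2 is a carrier of the mitochondrial inner membrane that brings phosphate and copper into the matrix. Aqr1 is a plasma membrane transporter of the major facilitator superfamily, which exchanges drugs, weak acids and some amino acids for protons. K. phaffii respires on both carbon sources, and glycerol enters its metabolism through a kinase, GUT1, that is kept low by glucose.

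The 4 genes lie on 3 chromosomes. TMA10 (locus PAS_chr4_0407, protein C4R7T1) is a model of 312 bp on the plus strand of chromosome 4, from 809530 to 809841. RGI2 (PAS_chr1-1_0407, C4QX11) covers 534 bp on the plus strand of chromosome 1, from 1318767 to 1319300. PIC2 (PAS_chr4_0488, C4R819) covers 855 bp on the minus strand of chromosome 4, from 960926 to 961780, and AQR1 (PAS_chr2-2_0065, C4R2Z3) covers 1413 bp on the minus strand of chromosome 2, from 2256592 to 2258004. These positions are those of the deposited table, and they coincide with the gene models of RefSeq assembly ASM2700v1. No other gene model overlapped any of the 4.

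Levels are given in RPKM, reads scaled to the length of the gene model and to the mapped reads of the library, and can therefore be compared between genes. The read totals behind this scaling were recovered from the RPKM values and ran from 16.3 to 20.4 M per library. Of these reads, 92.41 to 93.85% lay in gene models. The authors report a higher average number of reads per sample, nearly all of them mapped, and the reason for the difference was not examined. TMA10 was the most thinly covered of the 4, with 35 to 596 reads per library, so that counting alone gives an error of 16.9% at its lowest value. RGI2 had at least 253 reads, PIC2 at least 141 and AQR1 at least 794. As a check of the carbon source labels, GUT1 was at 47.2 to 59.9 RPKM in the libraries of glucose cells at time zero, against 177 to 182 RPKM on glycerol in the pH 8.2 course and 116 to 125 RPKM in the pH 8.0 course. PCK1, a gluconeogenic enzyme, and JEN1, a lactate transporter, were also lower on glucose, with no overlap between the carbon sources (24.3 to 30.1 RPKM against 78.6 to 207 RPKM, and 2.23 to 3.92 RPKM against 6.84 to 20.8 RPKM).

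Before stress, all 4 genes were several times higher on glucose than on glycerol, and no glucose library overlapped a glycerol library. TMA10 stood at 81.2 and 114 RPKM on glucose, against 12.3 and 13.9 RPKM (pH 8.2 course) and 6.53 and 10.5 RPKM (pH 8.0 course) on glycerol. Its log2 difference, computed on log2(RPKM + 1) against the mean of both glycerol groups as are those below, was 3.09 ± 0.40 (SE). No other of the 5034 genes compared had a larger one in size. In RNA from whole cultures, as here and below, fewer cells with a transcript and less of it per cell cannot be told apart.

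RGI2 stood at 192 and 332 RPKM on glucose, against 32.7 and 40.9 RPKM (pH 8.2 course) and 31.2 and 39.9 RPKM (pH 8.0 course) on glycerol. The 4 glycerol libraries lay within 10 RPKM of each other, whereas the glucose replicates were 1.73-fold apart, and the log2 difference was 2.78 ± 0.19. AQR1 was the most abundant of the 4 and reached 600 and 892 RPKM on glucose, against 105 and 154 RPKM (pH 8.2 course) and 114 and 166 RPKM (pH 8.0 course) on glycerol, a log2 difference of 2.46 ± 0.22. In size these differences were the 2nd and the 3rd of all genes.

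PIC2 differed less. It had 65.2 and 49.2 RPKM on glucose, against 16.5 and 16.2 RPKM (pH 8.2 course) and 15.5 and 18.2 RPKM (pH 8.0 course) on glycerol. The log2 difference of 1.71 ± 0.19 was the 11th largest. The median over all genes was -0.04.

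**Figure D1:**
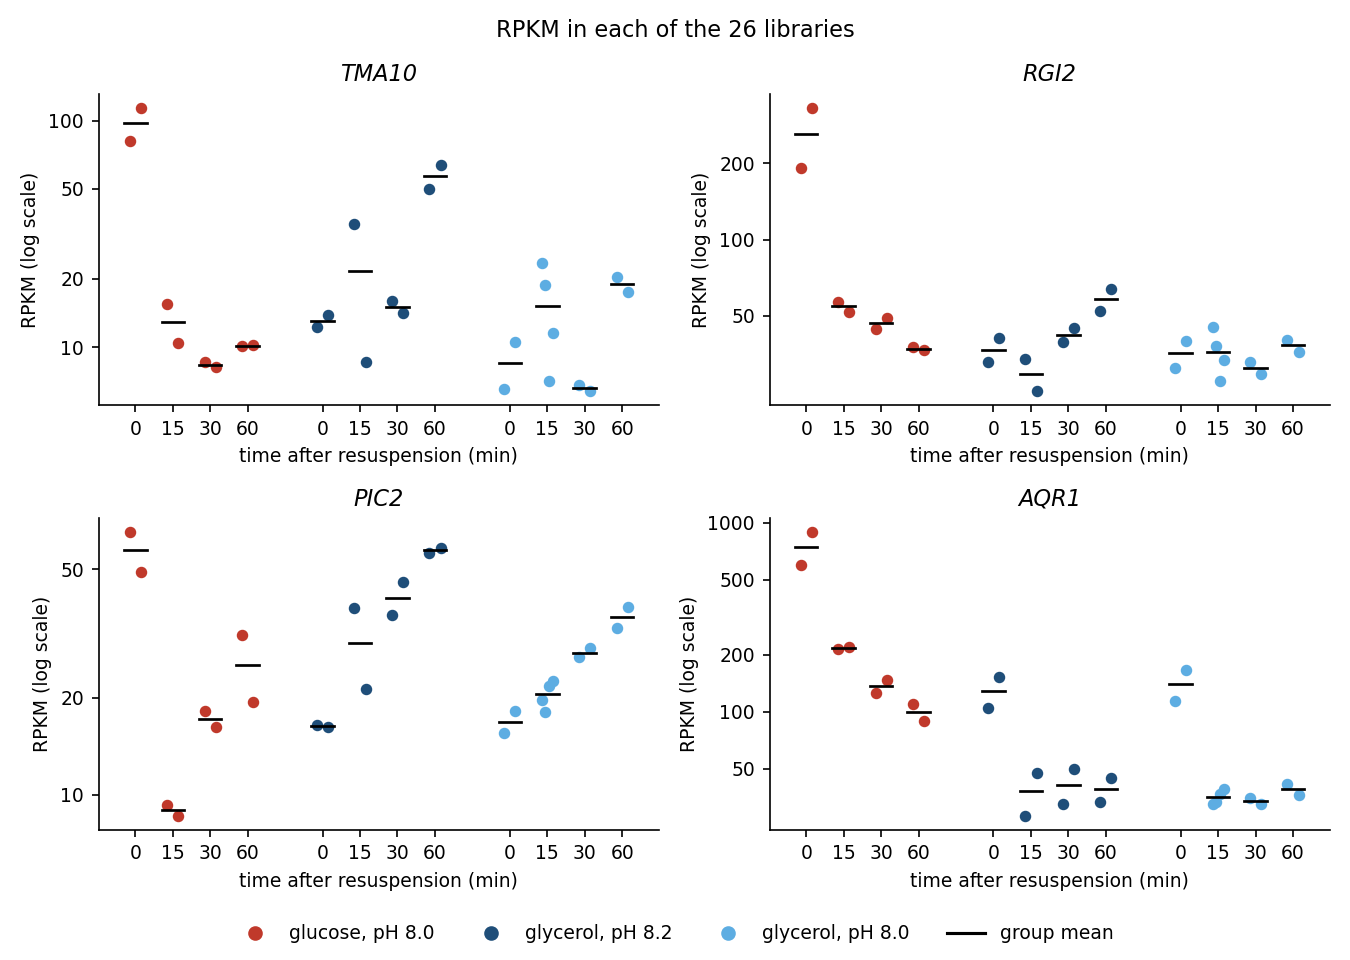
RPKM (log axis) of each gene in the 26 libraries, by course and time in minutes; a point is a library and a bar the group mean. Glucose at time zero stands above all other groups for TMA10, RGI2 and AQR1, whereas for PIC2 it overlaps glycerol at pH 8.2 after 60 min.

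On glucose, all 4 transcripts were below both time zero libraries in each of the 6 stressed libraries, and most of the drop was present in the first sample. The high level on glucose at time zero was part of the choice of the 4 genes. For this course and those below, the share of all genes lying on one side of time zero was not counted. TMA10 had 15.5 and 10.4 RPKM after 15 min, 8.62 and 8.14 RPKM after 30 min and 10.1 and 10.2 RPKM after 60 min. Its log2 changes from time zero were -2.83 ± 0.46, -3.38 ± 0.46 and -3.12 ± 0.46 (SE). From 15 min on it thus lay between 8.14 and 15.5 RPKM, a range close to that of the glycerol cells at time zero.

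RGI2 had 56.9 and 52.0 RPKM after 15 min, 44.6 and 48.8 RPKM after 30 min and 37.5 and 36.7 RPKM after 60 min. Each pair lay below the previous pair, with log2 changes from time zero of -2.19, -2.41 and -2.73 (SE 0.22 each). AQR1 likewise went on downwards, with 214 and 220 RPKM after 15 min, 125 and 147 RPKM after 30 min and 110 and 89.9 RPKM after 60 min. Its log2 changes were -1.75, -2.42 and -2.87 (SE 0.25 each).

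PIC2, the phosphate carrier, had another time course on glucose. It was lowest at the first sample, with 9.27 and 8.62 RPKM after 15 min, and then had 18.1 and 16.2 RPKM after 30 min and 31.3 and 19.4 RPKM after 60 min. The pairs did not overlap, each later pair lying above the earlier one, and the last pair was still below the lower of the time zero libraries (49.2 RPKM). The log2 changes from time zero were -2.54, -1.67 and -1.17 (SE 0.21 each). Glucose cells at 15 min had the lowest PIC2 level of the 12 groups.

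On glycerol at pH 8.0 the 4 genes split. AQR1 was again below time zero in all 8 stressed libraries, whereas PIC2 was above it in all 4 libraries taken after 30 and 60 min, and TMA10 and RGI2 had no such constant direction. The values of AQR1 were 32.6, 33.4, 36.9 and 39.3 RPKM after 15 min, 35.1 and 32.6 RPKM after 30 min and 41.6 and 36.4 RPKM after 60 min. The log2 changes were -1.92 ± 0.22, -1.99 ± 0.25 and -1.79 ± 0.25. The level was thus reached within 15 min, and later groups overlapped it.

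PIC2 had 19.6, 18, 21.7 and 22.5 RPKM after 15 min, 26.7 and 28.5 RPKM after 30 min and 33.0 and 38.3 RPKM after 60 min. The first of these groups overlapped time zero and the later ones did not, with log2 changes of 0.26 ± 0.19, 0.68 ± 0.21 and 1.04 ± 0.21.

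RGI2 stayed close to its time zero level, with 45.1, 38.0, 27.7 and 33.4 RPKM after 15 min, 32.9 and 29.5 RPKM after 30 min and 40.3 and 36.1 RPKM after 60 min. Its log2 changes were 0.01 ± 0.19, -0.18 ± 0.22 and 0.11 ± 0.22, all smaller than their errors. All 3 groups overlapped time zero. TMA10 was uneven, with 23.5, 18.9, 7.12 and 11.6 RPKM after 15 min, 6.79 and 6.39 RPKM after 30 min and 20.4 and 17.5 RPKM after 60 min. Only the 60 min pair stood clear of time zero, with a log2 change of 1.09 ± 0.46, against 0.68 ± 0.40 after 15 min and -0.30 ± 0.46 after 30 min. In the 15 min group, replicates 1 and 2 lay above time zero, and replicates 3 and 4 lay at 7.12 and 11.6 RPKM.

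**Figure D2:**
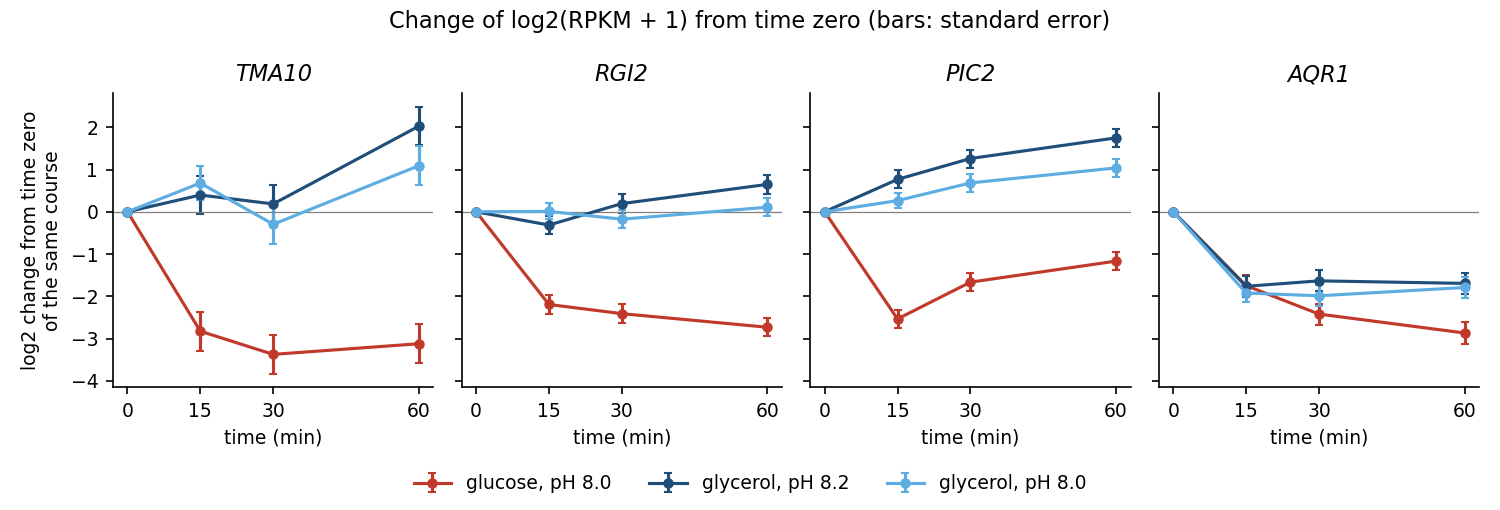
Log2 change from time zero of the same course, in log2(RPKM + 1), against time in minutes; points are estimates from a fit over 26 libraries and bars are standard errors. After 60 min on glucose all 4 genes lie between -1.17 and -3.12, whereas on glycerol only AQR1 lies below 0.

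The change on glucose minus the change on glycerol, both at pH 8.0, was largest in size for TMA10 and smallest for AQR1 among the 4 genes. For TMA10 this log2 difference was -3.51 ± 0.60 after 15 min, -3.08 ± 0.65 after 30 min and -4.21 ± 0.65 after 60 min, the largest of all 5034 genes at each time. The 3 values share the time zero libraries on which the gene was chosen. The 15 min value was -2.94 without replicates 1 and 2, and -4.07 without replicates 3 and 4, of glycerol at pH 8.0 after 15 min. For PIC2 the log2 difference was -2.80 ± 0.28, -2.35 ± 0.30 and -2.21 ± 0.30, and for RGI2 it was -2.20 ± 0.29, -2.24 ± 0.31 and -2.84 ± 0.31. Both were among the 5 largest at each time.

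AQR1 had a difference of 0.18 ± 0.33 after 15 min, rank 2386 of 5034 by size. At that time its change was -1.75 on glucose and -1.92 on glycerol, a difference smaller than its error. The difference ran from -0.11 to 0.46 when single libraries were left out, and it was not tested. These values thus do not show a carbon-dependent early drop of AQR1. After 30 and 60 min the difference was -0.43 ± 0.35 (rank 469) and -1.08 ± 0.35 (rank 90).

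The same values can be read as a gap in level between the carbon sources at each time. For TMA10 the log2 level on glucose minus that on glycerol (pH 8.0 course) was 3.38 ± 0.46 at time zero and -0.12 ± 0.40, 0.31 ± 0.46 and -0.83 ± 0.46 after 15, 30 and 60 min. For RGI2 it was 2.80 ± 0.22 at time zero, 0.60 ± 0.19 and 0.57 ± 0.22 after 15 and 30 min, and -0.04 ± 0.22 after 60 min. After 60 min neither gene was any longer above its glycerol level.

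PIC2 changed sides. Its gap was 1.69 ± 0.21 at time zero, and -1.11 ± 0.19, -0.65 ± 0.21 and -0.51 ± 0.21 after 15, 30 and 60 min. Both glucose libraries lay below all glycerol libraries after each of these times (19.4 and 31.3 RPKM against 33.0 and 38.3 RPKM after 60 min). AQR1 alone of the 4 kept a gap of the initial sign at all times, with 2.41 ± 0.25 at time zero and 2.58 ± 0.22, 1.97 ± 0.25 and 1.33 ± 0.25 after 15, 30 and 60 min.

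**Figure D3:**
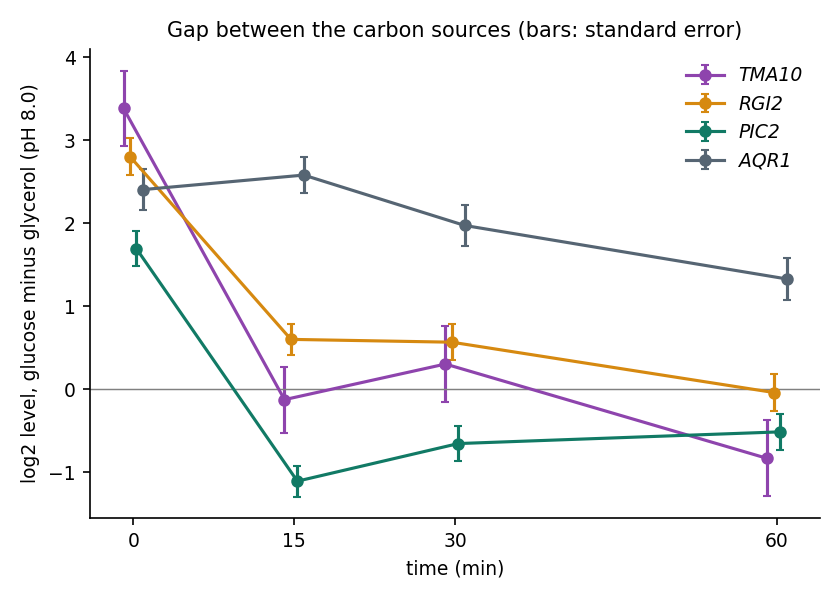
Log2 level on glucose minus log2 level on glycerol in the pH 8.0 courses, against time in minutes, with standard errors; points are shifted slightly sideways for legibility. All 4 genes start above 0; AQR1 stays there (1.33 after 60 min), RGI2 and TMA10 reach or pass 0, and PIC2 lies below 0 from 15 min on.

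At pH 8.2 on glycerol, PIC2 was above and AQR1 below time zero in every stressed library, and TMA10 and RGI2 were highest in the last sample. From 15 to 60 min TMA10, RGI2 and PIC2 rose. PIC2 had 16.5 and 16.2 RPKM at time zero, 37.9 and 21.4 RPKM after 15 min, 36.0 and 45.6 RPKM after 30 min and 56.2 and 58.3 RPKM after 60 min. The 60 min pair reached the level of glucose cells before stress. The log2 changes from time zero were 0.77, 1.26 and 1.75 (SE 0.21 each). PIC2 was higher after 60 than after 15 min, with a log2 difference of 0.98 ± 0.21 (adjusted p = 0.000536; limma's moderated test over 26 libraries, adjusted by Benjamini-Hochberg over 5034 genes, as for all adjusted p-values here). Between 30 and 60 min the difference of 0.49 ± 0.21 did not pass (adjusted p = 0.0645), although the pairs did not overlap.

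AQR1 had 105 and 154 RPKM at time zero, 28.3 and 47.8 RPKM after 15 min, 32.5 and 49.9 RPKM after 30 min and 33.4 and 44.7 RPKM after 60 min. The 6 stressed libraries lay within one band, all below the lower time zero value. The log2 changes from time zero were -1.76, -1.64 and -1.70 (SE 0.25 each). After 60 min AQR1 differed by 0.07 ± 0.25 from 15 min and by -0.06 ± 0.25 from 30 min (adjusted p = 0.819 and 0.862). The sign of the first turned under scaling by median ratios (-0.12), and both turned when single libraries were left out (-0.30 to 0.44 and -0.36 to 0.24).

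TMA10 had 12.3 and 13.9 RPKM at time zero, 34.8 and 8.56 RPKM after 15 min, 15.9 and 14.1 RPKM after 30 min and 49.9 and 63.5 RPKM after 60 min. The 15 min replicates fell on either side of time zero and the 30 min pair lay just above it, whereas the 60 min pair was above all earlier libraries of the course. The log2 changes from time zero were 0.40 ± 0.46, 0.19 ± 0.46 and 2.03 ± 0.46. The level after 60 min was higher than after 15 min (log2 difference 1.63 ± 0.46, adjusted p = 0.00425) and after 30 min (1.84 ± 0.46, adjusted p = 0.00266).

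RGI2 had 32.7 and 40.9 RPKM at time zero, 33.9 and 25.2 RPKM after 15 min, 39.4 and 44.7 RPKM after 30 min and 52.3 and 64.1 RPKM after 60 min. Only the 60 min pair was above both time zero libraries. The log2 changes from time zero were -0.31, 0.19 and 0.65 (SE 0.22 each). RGI2 was higher after 60 than after 15 min by 0.96 ± 0.22 on the log2 scale (adjusted p = 0.00078), and 60 against 30 min gave 0.45 ± 0.22 (adjusted p = 0.0914).

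Counted together, 3 of the 4 genes (TMA10, RGI2 and PIC2) were higher after 60 than after 15 min, where 43.8% of all genes were higher and 21.1% lower at an adjusted p below 0.05. With a change of at least 2-fold and an unadjusted p below 0.01 as further conditions, TMA10 alone of the 4 was higher, a call made for 7.87% of all genes, with 2.46% called lower. From 30 to 60 min only TMA10 passed, also by at least 2-fold, where 27.8% of all genes were higher and 21.9% lower, and 3.87% and 1.19% were so by at least 2-fold. A rise between 15 and 60 min was thus frequent in this course. All 4 genes are on the authors' list of called genes, and the shares among the genes of that list were not counted. The median log2 change of all genes was itself 0.13 from time zero to 60 min and 0.18 from 15 to 60 min, and scaling the libraries by median ratios brought these medians to 0.01 and below 0.01 in size. The change of RGI2 from time zero to 60 min was then 0.53.

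Single libraries of the pH 8.2 course weighed on some of these values. Without replicate 1 at 15 min, the change from time zero to 15 min was 0.37 for PIC2 and -0.56 for TMA10, and TMA10 from 15 to 60 min was 2.58. Without replicate 2 at 15 min, these changes to 15 min were 1.17 for PIC2 and 1.35 for TMA10. In the same setting PIC2 was higher from 15 to 60 min by 0.58 (adjusted p = 0.0272), and the difference of TMA10 between 60 and 15 min missed the threshold (0.68, adjusted p = 0.183). Between the 15 min replicates of this course, TMA10 differed by 1.90 on the log2 scale, where 95% of all genes differed by less than 0.54. The later times had no counterpart in cells held at pH 5.5, so alkaline pH, handling, fresh medium and elapsed time cannot be told apart.

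Set beside pH 8.0 on the same carbon source, the changes at pH 8.2 had larger estimates for PIC2 and estimates close to those at pH 8.0 for AQR1. The change at pH 8.2 minus the change at pH 8.0 was 0.50 ± 0.28, 0.58 ± 0.30 and 0.71 ± 0.30 after 15, 30 and 60 min for PIC2. Leaving out single libraries gave 0.10 to 0.90, 0.41 to 0.74 and 0.60 to 0.82, the lowest of these being the 15 min value without replicate 1 at pH 8.2. For AQR1 it was 0.16 ± 0.33, 0.35 ± 0.35 and 0.10 ± 0.35. For TMA10 it was -0.28 ± 0.60, 0.48 ± 0.65 and 0.93 ± 0.65, and without single libraries it ran between -1.24 and 0.67, 0.17 and 0.79, and 0.63 and 1.24, so that after 15 min it had no stable sign. For RGI2 it was -0.32 ± 0.29, 0.37 ± 0.31 and 0.54 ± 0.31. These differences were not tested, because the change at pH 8.0 was used in the choice. The pH 8.0 libraries on glycerol carry another kind of library code than those of the other courses, so pH and library set cannot be told apart, and the same holds for glucose against glycerol at pH 8.0.

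Over the 12 groups, TMA10 ran 17.8-fold between its lowest and highest library (6.39 to 114 RPKM), RGI2 13.2-fold (25.2 to 332 RPKM), PIC2 7.56-fold (8.62 to 65.2 RPKM) and AQR1 31.6-fold (28.3 to 892 RPKM). In terms of rank within a library, AQR1 exceeded between 27.33 and 96.41% of all genes and TMA10 between 2.04 and 74.18%. The order of the groups differed between the genes. For TMA10, glucose at time zero (mean 97.6 ± 23.2 RPKM, SD, n = 2) came before glycerol at pH 8.2 after 60 min (56.7 ± 9.6 RPKM, n = 2), without overlap. The groups from the 3rd to the 6th place (means of 21.7 to 15.0 RPKM) overlapped their neighbours, and glycerol at pH 8.0 after 30 min was last, at 6.59 ± 0.28 RPKM.

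For RGI2, glucose at time zero (262 ± 98.9 RPKM) stood clear of all others. From the 2nd place (58.2 RPKM, glycerol at pH 8.2 after 60 min) to the last (29.5 RPKM, glycerol at pH 8.2 after 15 min), neighbouring groups overlapped, except glucose after 15 and 30 min. For AQR1, glucose at time zero (746 ± 207 RPKM) and after 15 min (217 ± 4.4 RPKM) came first. They were followed by a set of 4 overlapping groups with means of 140 to 99.8 RPKM, formed by both glycerol groups at time zero and by glucose after 30 and 60 min. All 6 groups of stressed glycerol cells came last, with overlapping means of 41.2 to 33.9 RPKM.

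For PIC2 the first place was shared by glycerol at pH 8.2 after 60 min (57.3 ± 1.5 RPKM) and glucose at time zero (57.2 ± 11.3 RPKM). From the 3rd to the 11th place (40.8 to 16.3 RPKM) all neighbours overlapped, and glucose after 15 min, at 8.94 ± 0.46 RPKM, was alone below them. As a description over the 12 group means, Pearson's r was 0.80 between TMA10 and RGI2, 0.75 between RGI2 and AQR1 and 0.71 between TMA10 and PIC2, 0.43 between RGI2 and PIC2, 0.33 between TMA10 and AQR1 and -0.17 between PIC2 and AQR1. These points include glucose at time zero, where all 4 are high by the way they were chosen.

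The genes with the most similar pattern were sought by the same measure among the 1384 genes whose group means spanned at least 1 log2 unit; within a course, groups come from the same cultures. For AQR1 they were PAS_chr2-2_0163 (r = 0.97), GLK1 (0.96), PDC1 (0.95), PAS_chr2-1_0769 (0.94) and PAS_chr1-4_0141 (0.94). PDC1 is a pyruvate decarboxylase of the fermentative pathway, and GLK1 bears the name of a glucokinase although the authors' description of the locus is of a protein required for transcriptional induction. Both were higher on glucose at time zero (log2 difference 0.93 for PDC1 and 1.20 for GLK1) and both were lower after 60 min at pH 8.2 (-1.53 and -1.32).

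RGI2 was most like PAS_chr1-4_0181 (r = 0.89), C4R2F6 (0.88) and C4QXV2 (0.87), and the authors describe the last pair as hypothetical proteins. C4R2F6 was higher on glucose at time zero by 2.17 and changed by -2.33 after 60 min on glucose. TMA10 was most like PAS_chr2-1_0306 (r = 0.85) and RGI2 (0.80) over the group means, whereas over the 26 libraries r was 0.58 for PAS_chr2-1_0306 and 0.79 for RGI2. PIC2 was most like PAS_chr1-3_0077 (r = 0.82) and STL1 (0.81), a glycerol proton symporter of the plasma membrane, whose log2 difference at time zero was 0.84.

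Other genes with similar descriptions were followed from time zero at pH 8.2, where tests are given for the genes other than the 4. These lists were drawn by words in the descriptions of genes that the authors had called on these same samples. Their counts, medians and tests are therefore no independent evidence of a response. Over all genes, 16.2% rose and 26.2% fell after 15 min, 23.6% and 15.9% after 30 min, and 36.8% and 21% after 60 min. With the 2-fold conditions the shares were 3.2% and 2.5%, 4.41% and 2.26%, and 5.7% and 2.58%. Of the 4 mitochondrial carriers listed beside PIC2, 2 rose at least 2-fold after 60 min and none fell: YMC1 (log2 change 1.17 ± 0.18, adjusted p = 2.32e-05) and the carnitine carrier CRC1 (1.28 ± 0.13, adjusted p = 1.27e-07). AGC1, a carrier of aspartate and glutamate, and C4R972 fell after 15 min (-1.57 and -1.46, adjusted p = 4.78e-09 and 1.03e-07) and had changes of -0.07 and -0.01 after 60 min (adjusted p = 0.644 and 0.948). The median of the list, PIC2 included, was 1.17 after 60 min, against 0.13 over all genes. On glucose after 15 min YMC1 changed by 0.80 and CRC1 by 0.31.

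Of the 4 genes with drug resistance or transport in their descriptions listed beside AQR1, 1 fell and 2 rose after 60 min, beside 21% and 36.8% of all genes. QDR3, a proton antiporter for drugs in S. cerevisiae, fell at least 2-fold, and STB5 (at least 2-fold) and COS111 rose. QDR3 changed by -1.59, -1.87 and -1.40 after 15, 30 and 60 min (adjusted p = 9.18e-10, 5.4e-11 and 3.72e-09). STB5, a transcription factor of multidrug resistance genes, rose by 1.27 ± 0.12 after 60 min (adjusted p = 1.08e-07). FLR1, a multidrug transporter, rose by 2.57 after 15 min and 3.00 after 30 min (adjusted p = 0.00596 and 0.00189) and had a change of 0.83 after 60 min (adjusted p = 0.318), and COS111 rose by 0.81 after 60 min (adjusted p = 0.000233). The list median, AQR1 included, was 0.81 after 60 min, against 0.13 over all genes.

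Beside TMA10, 2 genes of ribosome-associated proteins were listed. TMA17 rose at all times, by 2.48, 2.85 and 2.65 (adjusted p = 5.51e-08, 6.73e-09 and 1.86e-08). TMA17 in S. cerevisiae is an assembly chaperone of the proteasome. TSA1, a peroxiredoxin, rose after 15 and 30 min (1.86 and 2.28, adjusted p = 0.0456 and 0.0174) and had a change of 1.39 after 60 min (adjusted p = 0.108). With TMA10 the list median after 60 min was 2.03, which is the change of TMA10 itself.

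Of 5 genes of hexose transport and glucose sensing, 2 rose and 1 fell after 60 min, beside 36.8% and 21% of all genes. HXT15, named after a hexose transporter, rose by 0.71, 1.23 and 1.50 (adjusted p = 0.000784, 1.94e-06 and 1.15e-07). MTH1 rose by 0.85, 0.92 and 0.47 (adjusted p = 0.000284, 0.000116 and 0.0168). One locus named GAL2 (C4QYV2) fell by 1.07, 1.33 and 0.74 on the log2 scale (adjusted p = 9.68e-06, 5.78e-07 and 0.000295), and the other (C4QZI1) by 1.13 and 0.51 after 15 and 30 min (adjusted p = 3.58e-06 and 0.00714). The kinase gene YAK1 passed at no time. The list median after 60 min was 0.47, against 0.13 over all genes.

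Because the libraries did not keep strand, the nearest gene models were examined beside the members. TMA10 and RGI2 each face a gene on the opposite strand whose end lies 44 bp and 53 bp away, and AQR1 faces one at 81 bp. Reads running past an end cannot be assigned there. After 15 min on glucose these neighbours had smaller changes than the members. PAS_chr4_0408, next to TMA10, changed by -0.47, PAS_chr1-1_0408, next to RGI2, by -0.02, and PAS_chr2-2_0066, next to AQR1 and at 632 to 1485 RPKM over all libraries, by -0.37.

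On the other side, some neighbours on the same strand shared part of the pattern. C4R2Z4, 239 bp upstream of AQR1, had 76.3 RPKM on glucose at time zero, against 38.5 and 36.2 RPKM on glycerol (group means; pH 8.2 and pH 8.0 courses), and it changed by -1.25 after 15 min on glucose. At pH 8.2 after 60 min AQR1 changed by -1.70, against -0.16 for C4R2Z4 (adjusted p = 0.308). C4R7T0, 837 bp upstream of TMA10, changed by -2.10 after 15 min on glucose and by -0.10 after 60 min. Next to PIC2, ADR1 (669 bp away), named after a transcription factor of carbon metabolism, and YGL108C (589 bp away) rose after 60 min at pH 8.2, by 0.92 and 0.80 (adjusted p = 7.44e-05 and 7.8e-05), with changes of 0.13 and -0.22 after 15 min on glucose.

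**Figure D4:**
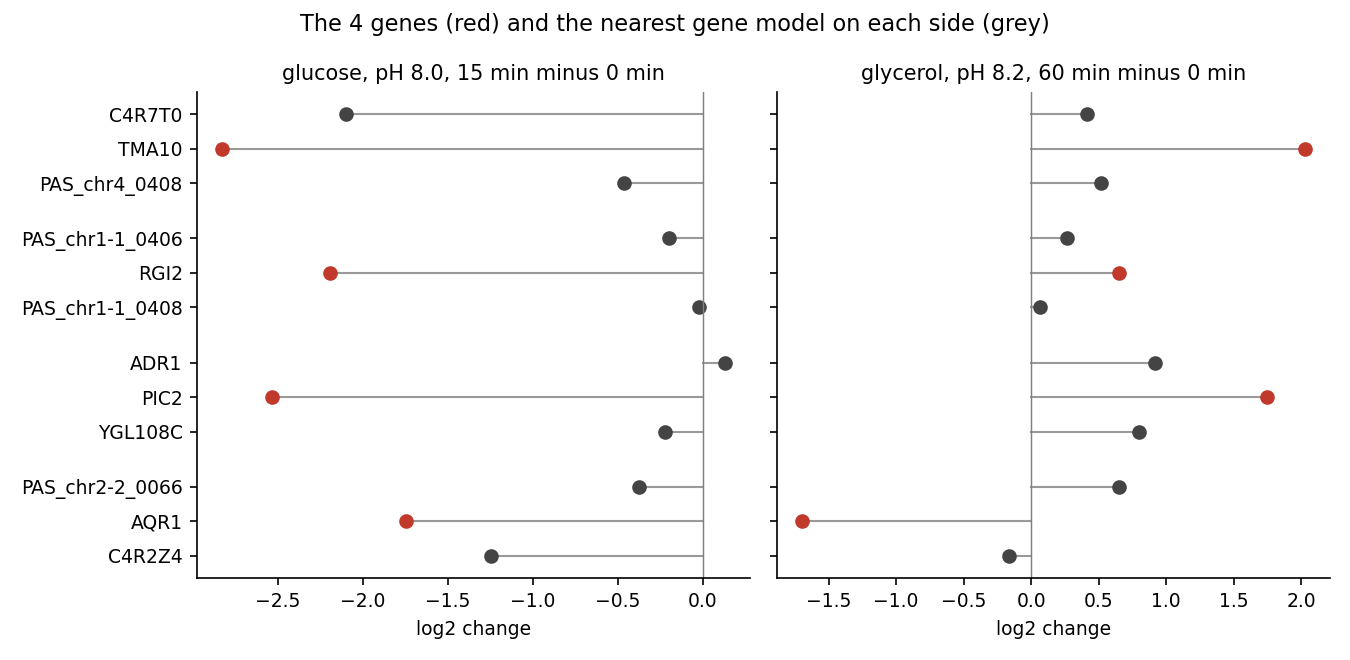
Log2 change of each of the 4 genes (red) and of the nearest gene model on each side (grey), after 15 min on glucose at pH 8.0 (left) and after 60 min on glycerol at pH 8.2 (right). On glucose the members lie between -1.75 and -2.83, and among their neighbours C4R7T0 (-2.10) and C4R2Z4 (-1.25) are the lowest.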

How the data were processed

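The authors aligned reads with Bowtie2 to the GS115 genome assembly ASM2700v1 and deposited RPKM values per gene model for 26 libraries, computed in SeqMonk. Within a tolerance of 0.1 read, 100% of RPKM values were whole reads at the recovered depth. A second deposited table gives names and descriptions, used here, and the authors' DESeq2 fold changes and p-values for the genes they called, not used.

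RPKM were analysed as log2(RPKM + 1) with limma 3.58.1 in R 4.3.3, in one model of 12 group means with a variance trend (14 residual degrees of freedom), over 5034 genes with at least 1 RPKM in at least 2 libraries. The fit was tested on simulated data. Fold changes on this scale understate those of low genes. "Rose" and "fell" mean an adjusted p below 0.05. Tests of the 4 genes against time zero at pH 8.2 were planned and run, but their p-values are not reported, because time zero was used in the choice of the genes. Figures were drawn with matplotlib 3.10.9.

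The members and lists were chosen with earlier results of these data known. Genes named are the members, GUT1, PCK1 and JEN1 as a label check, the 5 nearest patterns per member (some given here), the nearest gene models, and the lists of mitochondrial carriers, drug-related genes, hexose genes and ribosome-associated proteins. Replicates are separate libraries, described by the authors as biological; times within a course share cultures, and p-values measure the spread between these samples. Alternatives were other pseudocounts, filters, scalings, baselines, a replicate block, the pH 8.2 libraries alone and leaving out each library.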

Additional observations from a re-analysis of the deposited data

Results flagged for a closer look

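Changes in opposite directions on glucose and glycerol were flagged separately for each time. At that time, every library of one course had to lie below, and every library of the other above, its own time zero libraries. The difference was not tested in any of these cases, because the changes on glucose were used in the choice of the genes. How many of all genes meet this rule was not counted. All values are log2 changes from time zero.

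PIC2 was flagged at each time. After 15 min its change was -2.54 on glucose and 0.77 on glycerol at pH 8.2. After 30 min it was -1.67 on glucose, 1.26 on glycerol at pH 8.2 and 0.68 on glycerol at pH 8.0, and after 60 min it was -1.17, 1.75 and 1.04 in the same order.

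TMA10 was flagged after 30 min, with -3.38 on glucose and 0.19 ± 0.46 on glycerol at pH 8.2. The latter change was smaller than its error, and on glycerol at pH 8.0 the change was -0.30. TMA10 was also flagged after 60 min, with -3.12 on glucose, 2.03 on glycerol at pH 8.2 and 1.09 on glycerol at pH 8.0. RGI2 was flagged after 60 min, with -2.73 on glucose and 0.65 on glycerol at pH 8.2. AQR1 was flagged at no time, since it lay below time zero in every stressed library of all 3 courses. In the group of 4 libraries (glycerol at pH 8.0 after 15 min), no member had a library far from the others by Dixon's criterion.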

How the results depend on the processing

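Scaling by median ratios gave 0.53 for RGI2 after 60 min at pH 8.2 and -0.12 for AQR1 from 15 to 60 min. A pseudocount of 5 RPKM left 168 genes called from 30 to 60 min, against 255, and gave 2.70 for TMA10 and 1.52 for PIC2 at time zero. For the change on glucose minus that on glycerol it gave -2.37 and -2.05 for PIC2 after 15 and 30 min, and -2.71 and -3.58 for TMA10 after 30 and 60 min. A baseline of both glycerol groups gave -2.78 and -3.92 for TMA10 at these times.

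With the replicate number as a block, PIC2 from 30 to 60 min passed (0.49, adjusted p = 0.0415). The change of TMA10 on glucose minus that on glycerol after 15 min was then -4.07. This block gave replicates 3 and 4 of glycerol at pH 8.0 after 15 min terms of their own. That value thus rests on replicates 1 and 2 of the group and is no separate alternative to leaving out replicates 3 and 4. Same-numbered libraries had correlated deviations of 0.07 to 0.70 at pH 8.2 and -0.04 to 0.63 at pH 8.0 on glycerol, and of 0.11 to 0.35 on glucose. The labels do not say that numbers mark cultures. At pH 8.0 on glycerol, the values that involve 15 min were -0.04, 0.08 and 0.01. By the order of the library codes, replicates 3 and 4 of that group, rather than 1 and 2, run on with the other times. These 3 values therefore cannot tell whether libraries pair. For TMA10 that difference was -2.94 without replicates 1 and 2, and -4.07 without replicates 3 and 4, of glycerol at pH 8.0 after 15 min, an alternative chosen after seeing the data.

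Leaving out each library in turn gave, at pH 8.2, -0.56 to 1.35 for TMA10 and 0.37 to 1.17 for PIC2 after 15 min, 0.49 to 0.80 for RGI2 after 60 min, 0.68 to 2.58 for TMA10 and -0.30 to 0.44 for AQR1 from 15 to 60 min, and -0.36 to 0.24 for AQR1 from 30 to 60 min. At time zero it gave 2.39 to 3.17 for RGI2 and 1.51 to 1.91 for PIC2. For the change on glucose minus that on glycerol it gave, after 15, 30 and 60 min, -2.60 to -1.81, -2.63 to -1.84 and -3.24 to -2.45 for RGI2, and -3.00 to -2.60, -2.55 to -2.15 and -2.54 to -1.87 for PIC2. It gave -3.39 to -2.77 and -4.52 to -3.91 for TMA10 after 30 and 60 min, and -0.11 to 0.46 for AQR1 after 15 min. The cause was not tested. Other contrasts within the pH 8.2 course kept their direction for the 4 genes, and their side of the threshold where tested, and other counts of called genes stayed within 1.5 times, under all settings run. Groups of 2 libraries and the low read numbers of TMA10 limit the precision.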

Other observations

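In each of the 3 time zero groups, replicate 2 stood above replicate 1 for TMA10, RGI2 and AQR1. On glucose the values of replicate 2 and replicate 1 were 332 and 192 RPKM for RGI2, 892 and 600 RPKM for AQR1 and 114 and 81.2 RPKM for TMA10. On glycerol AQR1 had 154 and 105 RPKM in the pH 8.2 course and 166 and 114 RPKM in the pH 8.0 course. Among all 5034 genes, 364 (7.23%) had replicate 2 above replicate 1 in all 3 groups. PIC2 did not, with 49.2 and 65.2 RPKM on glucose. This was seen after the values were known, and whether the numbers mark a shared day or culture is not stated in the labels.

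STL1, the glycerol proton symporter, was among the 5 genes whose pattern was most like that of PIC2. After 60 min on glucose PIC2 changed by -1.17, against -1.02 for STL1, and after 60 min at pH 8.2 by 1.75, against 0.36 for STL1. PIC2 was chosen on its changes at pH 8.0. After 60 min at pH 8.0 PIC2 changed by -1.17 on glucose and 1.04 on glycerol, and YMC1, another mitochondrial carrier, by 0.70 on glucose and 1.12 on glycerol.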
